A study of Citrullus lanatus with 6 samples.

Results

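Argininosuccinate synthase and argininosuccinate lyase, the enzymes that turn citrulline into arginine, are described here through the 5 watermelon genes annotated for them. They are the synthase genes ASS1 (ClCG06G017780), ASS2 (ClCG03G003670) and ASS3 (ClCG03G003660) and the lyase genes ASL1 (ClCG08G011660) and ASL2 (ClCG11G014580). The genes were taken by their identifiers and enzyme names, and they are 5 of the 19742 genes with at least 1 read count. All 5 passed the filter on low counts. Whether the genome holds further copies was not examined here.

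The synthase joins citrulline to aspartate at the cost of ATP and forms argininosuccinate. The lyase then splits argininosuccinate into arginine and fumarate, so that the pair of enzymes forms the last steps of arginine synthesis and the main route by which citrulline is used up. Watermelon is known for storing citrulline in the fruit and for accumulating it in leaves that run short of water, and arginine made from it feeds protein, polyamines and urea.

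Each of 6 plants of the cultivar Crimson Sweet, 3 kept well watered and 3 under drought, gave 1 library of leaf RNA. Pots of the control were held at 95 ± 5% of relative water content and pots of the drought treatment at 35 ± 5%, and leaves of both groups were taken 8 days after the treatment began, from plants 89 days old. The plants are called independent by the study, so the spread between libraries is a spread between plants of 1 cultivar at 1 time in 1 experiment. Values listed for a group follow its replicates 1, 2 and 3 in that order. Library totals were 17907062 to 22351455 counts, and the lowest count of any of the 5 genes in any library was 145. In bulk leaf samples, fewer cells of a type and less RNA per cell cannot be told apart.

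The synthase and lyase copies lie on 4 chromosomes of the Charleston Gray genome, with ASS2 and ASS3 side by side. ASS1 occupies chr6:30873887-30876957 on the minus strand, with a transcript length of 1827 bases. ASS2 lies at chr3:4036767-4040520 and ASS3 at chr3:4022547-4035588, both on the minus strand, with transcript lengths of 1835 and 2845 bases. ASL1 lies at chr8:24452227-24457408 on the plus strand and ASL2 at chr11:27799205-27805098 on the minus strand, with transcript lengths of 2009 and 1600 bases. The positions and lengths are those of the deposited tables.

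The study followed ASS1, ASL1 and ASL2 by quantitative PCR as well, and the primer pairs are shown because they are its assays of the copies that carry most of the transcript of each enzyme. They are tied to a copy by the gene identifier listed with them, and which copies each pair matches was not checked here. They are written 5′ to 3′ in lower case with no part marked.
ASS1 forward: caggaggaaccatcctattcac
ASS1 reverse: acaccagctcggcatattt
ASL1 forward: gatgagatcgagaggcgtattc
ASL1 reverse: gctcgccaatcaaatcagtaag
ASL2 forward: cgttccgggctatacacattta
ASL2 reverse: gacaaacgaccagcatctct

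Among the synthase genes, ASS2 fell in drought-stressed leaves, and ASS1 and ASS3 had lower means that did not pass the test over all genes. ASS2 stood at 20.2, 16.6 and 19.2 FPKM (fragments per kilobase of transcript, scaled by library total, a level per length) in the control and at 5.72, 3.66 and 3.74 FPKM under drought. Every drought-stressed plant lay below every control plant, and the controls agreed closely with each other on FPKM. On TMM-scaled CPM (counts over library totals adjusted for composition), the scale of the test, control replicate 2 was lower than the other controls. The values there were 41.8, 26.5 and 43.3 CPM in the control and 9.88, 6.07 and 6.66 CPM under drought. The group means were 18.6 ± 1.83 and 4.37 ± 1.17 FPKM (SD, n = 3 each). On the counts, ASS2 was 4.93-fold lower, or -2.30 on the log2 scale (SE 0.30, 95% interval -3.02 to -1.59, adjusted p = 0.00800 from edgeR's quasi-likelihood test). Without drought replicate 3 the adjusted p from edgeR was 0.0507, the highest of 1.22e-09 to 0.0507 over 14 alternative settings.

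ASS2 was the single gene of the 5 called at an adjusted p under 0.05, where 13.4% of the 16318 tested genes were called. In that test 1319 genes, 8.08%, were lower and 866, 5.31%, were higher. The split into higher and lower moved with the scaling, to 937 and 858 with library totals, 1073 and 791 or 1010 and 800 on log2 FPKM with a pseudocount of 1 or 0.1, and 499 and 437 when scaled by actin and tubulin. At an unadjusted p under 0.05, which 31.5% of the tested genes met, the 3 synthase genes passed and neither lyase gene did.

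**Figure D1:**
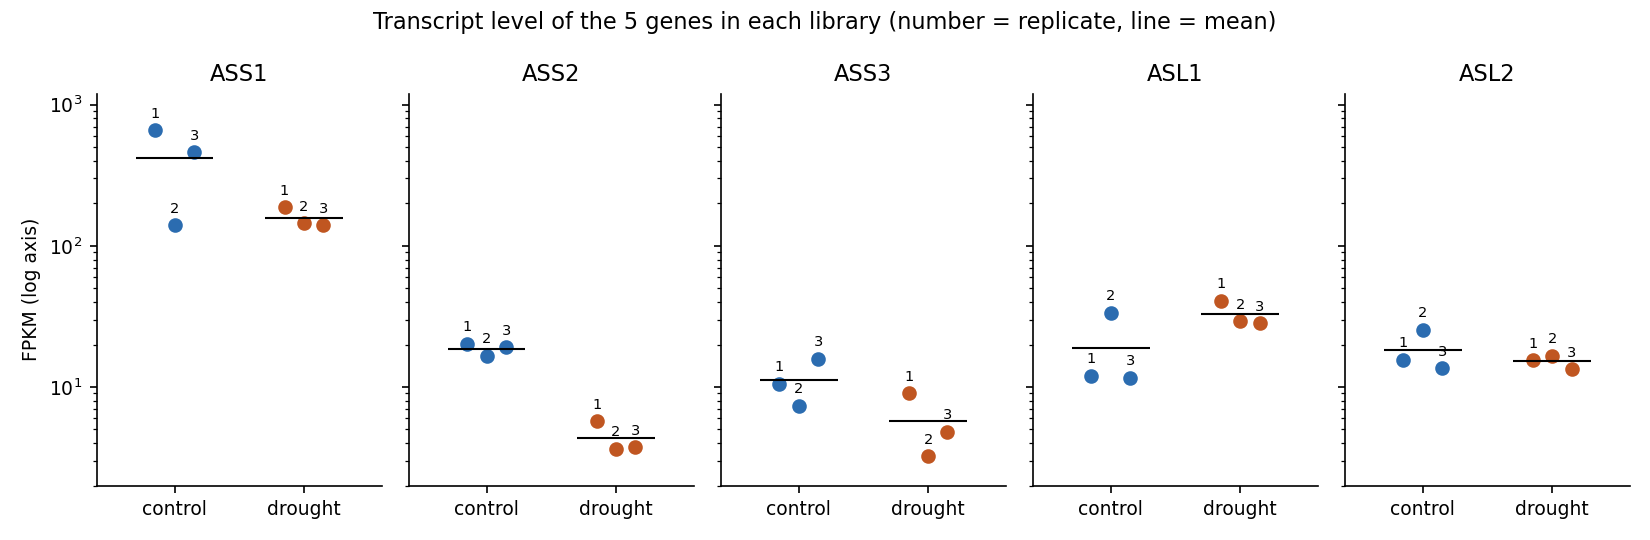
Level of each of the 5 genes in FPKM on a log axis, 1 point per library (blue control, orange drought), with the replicate number above each point and a line at the group mean. ASS2 is the gene whose groups stand apart, at 16.6 to 20.2 against 3.66 to 5.72 FPKM, and control replicate 2 of ASS1, ASS3 and ASL1 lies among the drought points.

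ASS1 carried most of the synthase transcript, and its control plants disagreed. Its level was 659.8, 140.1 and 461.4 FPKM in the control and 187.6, 144.3 and 139.5 FPKM under drought. Control replicates 1 and 3 lay above every drought-stressed plant, whereas control replicate 2 lay among them. The means were 420.4 ± 262 and 157 ± 26.5 FPKM (SD, n = 3 each), a coefficient of variation of 62.4% in the control and 16.9% under drought. Its difference on the log2 scale was -1.70 (SE 0.62, 95% interval -3.15 to -0.24, adjusted p = 0.112 from edgeR, 0.0282 unadjusted). DESeq2 called it lower (-1.72, adjusted p = 0.0202), in a fit that called 25.2% of the tested genes and 15.2% as lower. Among 23568 gene models ranked by FPKM within a library, ASS1 held place 132, 907 and 185 in the control and 508, 767 and 766 under drought.

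ASS3, the neighbour of ASS2, had the widest spread between drought-stressed plants relative to its mean. It stood at 10.5, 7.38 and 15.8 FPKM in the control and at 9.04, 3.24 and 4.82 FPKM under drought. The groups overlapped, since drought replicate 1 lay above control replicate 2. Each drought-stressed plant lay below the control plant of the same replicate number, but neither labels nor paper pair the plants. The means were 11.2 ± 4.27 and 5.70 ± 3.0 FPKM (SD, n = 3 each), with a difference of -1.23 on the log2 scale (SE 0.51, 95% interval -2.43 to -0.03, adjusted p = 0.151 from edgeR).

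The lyase genes had no call in either direction. ASL1 stood at 12, 33.4 and 11.6 FPKM in the control and at 40.9, 29.2 and 28.2 FPKM under drought. Here too control replicate 2 lay among the drought-stressed plants, which were all above control replicates 1 and 3. The means were 19.0 ± 12.5 and 32.7 ± 7.06 FPKM (SD, n = 3 each), with a log2 fold change of 0.69 (SE 0.34, 95% interval -0.11 to 1.5, adjusted p = 0.213 from edgeR). ASL2 stood at 15.5, 25.4 and 13.6 FPKM in the control and at 15.5, 16.7 and 13.4 FPKM under drought. Its means were 18.2 ± 6.33 and 15.2 ± 1.68 FPKM (SD, n = 3 each), and its log2 fold change was -0.40 (SE 0.20, 95% interval -0.87 to 0.06, adjusted p = 0.211 from edgeR). On TMM-scaled CPM (counts over library totals adjusted for composition), all 3 drought-stressed plants lay below all 3 control plants for ASL2, at 22.7 ± 1.77 against 30.1 ± 4.62 CPM, whereas on FPKM the groups overlapped. ASS2 and ASL2 were the 2 genes of the 5 without overlap on CPM, and such a gap was found for 38.4% of the tested genes, 18.5% with drought lower. On FPKM, where 37.3% of the tested genes had a gap, ASS2 was the single one.

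**Figure D2:**
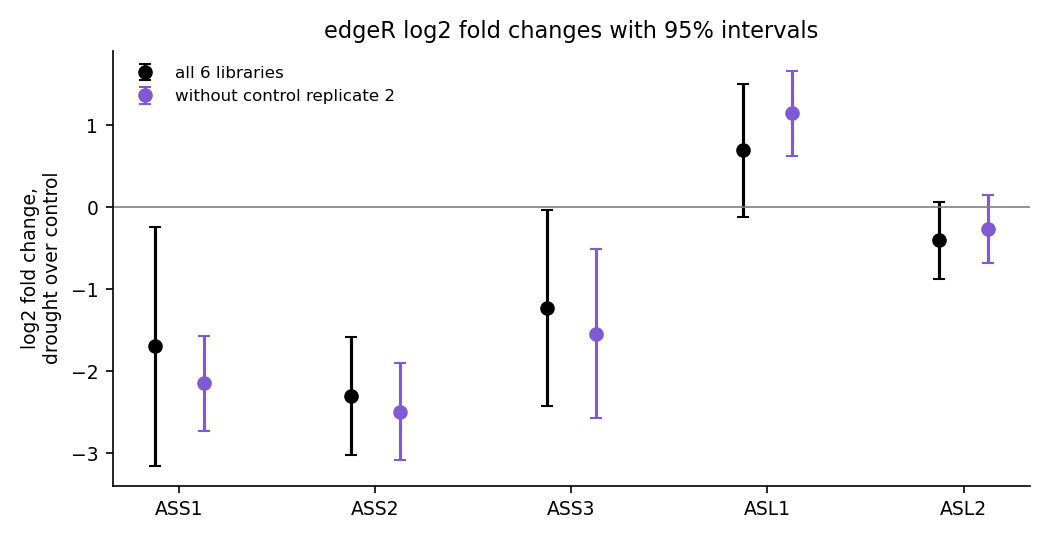
Log2 fold change of drought over control for each gene with its 95% interval from edgeR, with all 6 libraries (black) and without control replicate 2 (purple). The purple values of ASS1, ASS3 and ASL1 lie farther from 0, at -2.15, -1.54 and 1.14, with shorter intervals, and ASL2 crosses 0 in both fits.

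The edgeR calls of ASS1, ASS3 and ASL1 turned on control replicate 2. Without it, ASS1 was called lower at -2.15 on the log2 scale (SE 0.24, adjusted p = 0.00207 from edgeR, the lowest of 0.00207 to 0.292 over the alternatives). ASS3 was called lower at -1.54 (SE 0.44, adjusted p = 0.0404 from edgeR, within 0.0404 to 0.394), and ASL1 higher at 1.14 (SE 0.22, adjusted p = 0.0121 from edgeR, within 0.0121 to 0.479). ASS2 stood at -2.49 (SE 0.25, adjusted p = 0.00148 from edgeR) and ASL2 at -0.27 (SE 0.18, adjusted p = 0.302 from edgeR, within 0.164 to 0.915). Without this library 4 of the 5 genes were called, where 26.1% of 16707 tested genes were, 14.8% lower and 11.3% higher.

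This plant set many genes apart and not these alone. Control replicates 1 and 3 lay on 1 side of all drought-stressed plants in FPKM for 63.6% of the tested genes, and in 41.3% of those genes control replicate 2 was not on that side. ASS1, ASS3 and ASL1 belong to those genes, ASS2 was on the side of the other controls, and ASL2 did not separate control replicates 1 and 3 from the drought-stressed plants. The summed level of 8 chlorophyll a-b binding protein genes, leaf markers of the light-harvesting complex that the study had called lower, was 52981, 13478 and 36103 FPKM in the control and 11986, 8328 and 11951 FPKM under drought. All 8 had counts, 6 were tested and 1 was called lower. Rubisco activase, another leaf marker, stood at 437, 254 and 504 FPKM in the control and 852, 1105 and 1263 FPKM under drought. The phloem protein 2 gene, a marker of phloem, stood at 132.7, 115.5 and 180.9 against 67.5, 40.3 and 50.9 FPKM and was called lower. The sum of 3 genes described as pollen proteins, 2 of which were called lower, was 207, 98.3 and 203 against 30.9, 14.3 and 25.1 FPKM. All of these markers were taken from genes the study had called in these samples, so their calls are no independent evidence of a direction. Over all tested genes, 8.08% were called lower. The part of leaf composition in the values of the synthase and lyase genes was not tested.

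Summed over its copies, the synthase step gave 690.5, 164 and 496 FPKM in the control and 202, 151 and 148 FPKM under drought. The means were 450.3 ± 266 and 167 ± 30.5 FPKM (SD, n = 3 each), 2.69-fold apart, with control replicate 2 between the drought-stressed plants. The lyase step summed to 27.6, 58.8 and 25.3 FPKM in the control and to 56.3, 45.9 and 41.5 FPKM under drought. Its means were 37.2 ± 18.8 and 47.9 ± 7.61 FPKM (SD, n = 3 each), 1.29 times as high under drought, and control replicate 2 had the highest value of all 6 plants. The sums overlapped between the groups for both steps. Against the mean of control replicates 1 and 3, which was 593 FPKM for the synthase and 26.4 FPKM for the lyase, the drought mean was 3.55-fold lower and 1.81 times as high. The groups then did not overlap, as was so for 63.6% of the tested genes with these 2 controls in FPKM. No test is given for sums over a chosen set of genes.

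Within a plant, the ratio of synthase to lyase transcript does not depend on how libraries are scaled. It was 25, 2.79 and 19.7 in the control and 3.59, 3.30 and 3.56 under drought. The drought-stressed plants shared nearly 1 value, 3.48 ± 0.164, whereas the control had 15.8 ± 11.6 (SD, n = 3 each), and control replicate 2 lay below every drought-stressed plant. The means were 4.54-fold apart, with overlapping groups. The mean of control replicates 1 and 3, at 22.3, was 6.41-fold above the drought mean. That comparison leaves out control replicate 2, whose ratio was the lowest. In FPKM, control replicates 1 and 3 lay on 1 side of every drought-stressed plant for 63.6% of the tested genes. As a difference of mean log2 ratios over all plants, the step ratio was -1.67, and it ran from -1.09 without control replicate 1 to -2.67 without control replicate 2. On read counts, without division by transcript length, the ratio was 25.9, 2.85 and 20.4 in the control and 3.55, 3.28 and 3.53 under drought. The synthase transcript exceeded that of the lyase in all 6 plants.

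**Figure D3:**
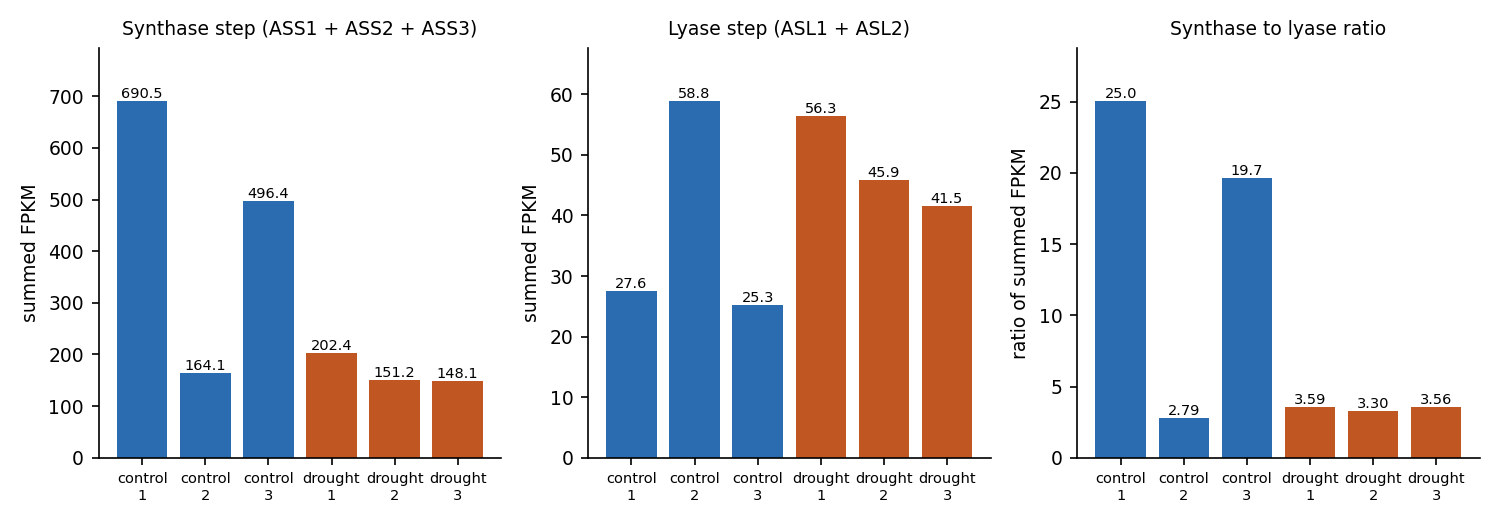
Summed FPKM of the 3 synthase genes (left) and of the 2 lyase genes (middle), and their ratio (right), with 1 bar per plant, blue for control and orange for drought. The ratio is 25 and 19.7 in control replicates 1 and 3 and between 2.79 and 3.59 in the other plants.

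The share of ASL1 in the lyase transcript was higher in each drought-stressed plant than in any control plant, control replicate 2 included. ASL1 gave 43.7, 56.8 and 46.1% of the summed lyase FPKM in the control and 72.6, 63.6 and 67.8% under drought. The highest control plant lay below the lowest drought-stressed plant, and the means were 48.9 ± 7.0% and 68.0 ± 4.48% (SD, n = 3 each). By read counts, the highest control share was 62.3% (Wilson 95% interval 60.1 to 64.4%) of 1931 lyase counts in control replicate 2, and the lowest drought share was 68.7% (66.6 to 70.7%) of 1907 counts in drought replicate 2. These intervals cover counting error only. For single genes, such a gap between the groups on FPKM was found for 37.3% of the tested genes. How often it arises for shares or ratios of other gene pairs was not examined.

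As a ratio, ASL1 to ASL2 was 0.775, 1.32 and 0.855 in the control and 2.64, 1.75 and 2.11 under drought. ASL1 was thus the lesser copy in control replicates 1 and 3 and the greater in the other 4 plants. On the log2 scale the ratio was 1.16 higher under drought (-0.07 ± 0.41 against 1.10 ± 0.30, exact permutation test, two-sided p = 0.1, and 0.133 adjusted over the 4 copy ratios tested). With 3 plants against 3, the exact test cannot go below 0.1, so none of these ratios could pass 0.05. Leaving out each plant in turn kept the difference between 1.01 and 1.39.

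Among the synthase copies, ASS1 gave 95.6, 85.4 and 93.0% of the summed FPKM in the control and 92.7, 95.4 and 94.2% under drought. It was the main copy in every plant, and its share overlapped between the groups (91.3 ± 5.29% and 94.1 ± 1.37%, SD, n = 3 each). ASS2 gave 2.92, 10.1 and 3.86% in the control and 2.83, 2.42 and 2.52% under drought. Every drought share of ASS2 was below every control share, but drought replicate 1 lay within counting error of control replicate 1. Their Wilson intervals by read counts overlapped, at 2.44 to 3.14% in drought replicate 1 and 2.71 to 3.12% in control replicate 1. ASS3 gave 1.52, 4.50 and 3.19% in the control and 4.47, 2.14 and 3.26% under drought, with full overlap. By read counts, ASS1 had 83.3% (Wilson 95% interval 82.2 to 84.2%) of the 5506 synthase counts of control replicate 2 and 90.4 to 94.7% in the other plants.

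**Figure D4:**
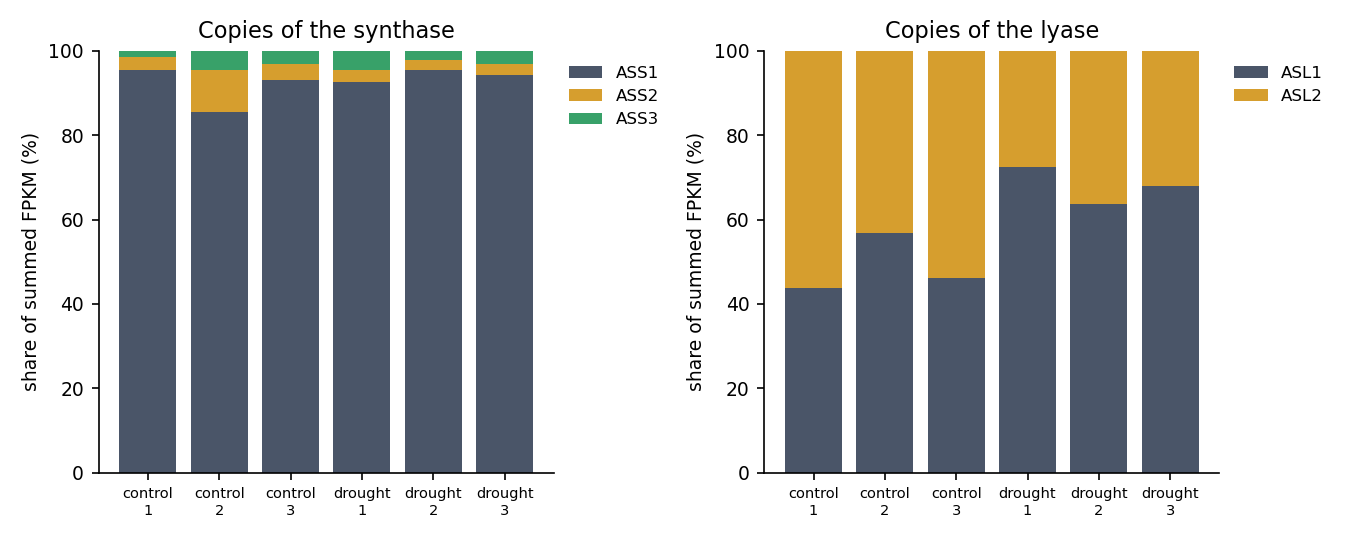
Share of each copy in the summed FPKM of its enzyme, in percent, with 1 bar per plant. ASS1 fills 85.4 to 95.6% of every synthase bar, whereas the ASL1 part of the lyase bars is 43.7 to 56.8% in the control and 63.6 to 72.6% under drought.

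The balance of the neighbouring copies ASS2 and ASS3 did not overlap between the groups, but the gap was within counting error. ASS3 to ASS2 was 0.521, 0.444 and 0.826 on FPKM in the control and 1.58, 0.886 and 1.29 under drought. The lowest drought ratio, in drought replicate 2, rests on 206 ASS3 and 150 ASS2 counts, with counting errors of 6.97 and 8.16%. ASS2 was the higher of the pair in all 3 control plants and in drought replicate 2, and ASS3 in drought replicates 1 and 3. On the log2 scale the ratio was 1.08 higher under drought (-0.80 ± 0.47 against 0.28 ± 0.42, exact permutation test, two-sided p = 0.1, adjusted 0.133). ASS2 to ASS1 was 0.95 lower on the log2 scale (-4.23 ± 1.03 against -5.19 ± 0.14, exact permutation test, two-sided p = 0.1, adjusted 0.133). The groups did not overlap, but this gap too was within counting error. The nearest ratios were 0.0306 in control replicate 1 and 0.0305 in drought replicate 1, with counting errors of ASS2 of 3.59 and 6.55%. The difference was -0.38 without control replicate 2 and -1.35 without control replicate 1. ASS3 to ASS1 differed by 0.13 (exact permutation test, two-sided p = 0.9), overlapped, and turned to -0.35 without control replicate 1 and -0.14 without drought replicate 1.

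Ordered by mean FPKM, the control leaves had ASS1 far ahead, then ASL1 at 19.0, ASS2 at 18.6, ASL2 at 18.2 and ASS3 at 11.2. The plants of these 4 genes overlapped in every pair but ASS2 and ASS3. In drought-stressed leaves the order was ASS1 at 157, ASL1 at 32.7, ASL2 at 15.2, ASS3 at 5.70 and ASS2 at 4.37 FPKM. There the first 3 genes did not overlap with each other or with the pair of ASS3 and ASS2, which overlapped.

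The ASS2 and ASS3 models are 1178 bases apart on the same strand. ASS3 spans 13042 bases and overlaps, at its end, the plus-strand model ClCG03G003650 at chr3:4021525-4026023, described as a leucine-rich repeat protein kinase, by 3477 bases or 26.7% of the ASS3 span. The library kit named by the study does not mark strand, so reads in the overlap cannot be told apart by strand, and the ASS3 values carry that limit. ClCG03G003650 had 1119, 156 and 521 counts in the control and 223, 125 and 148 counts under drought (log2 fold change -2.19, SE 0.68, adjusted p = 0.0770 from edgeR). The ASS3 counts in the same order were 628, 376 and 984 in the control and 571, 206 and 290 under drought. The overlap is one of spans, introns included, and whether reads were shared between ASS3 and ClCG03G003650 was not tested. Whether reads of ASS2 and ASS3, or of the other copies, were assigned to each other was not tested.

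**Figure D5:**
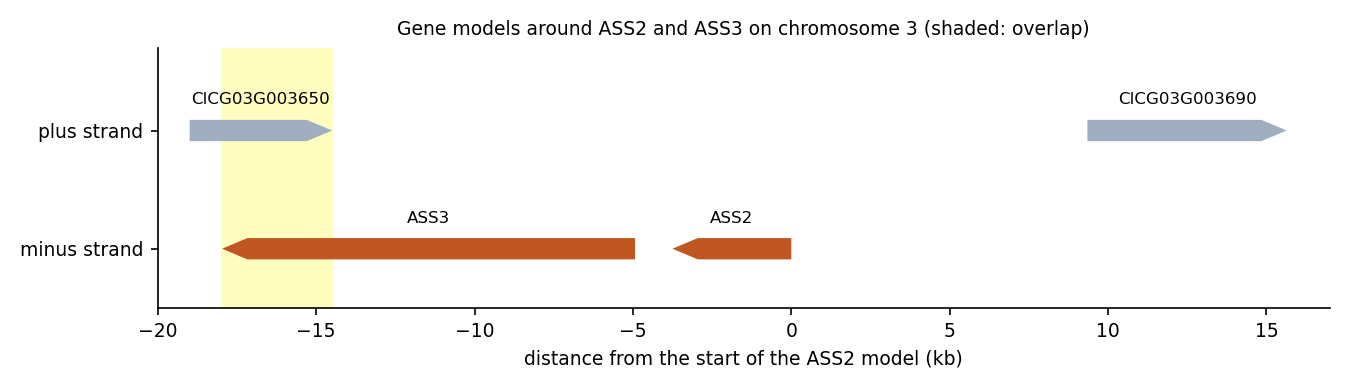
Gene models with a read count around ASS2 and ASS3 by distance from the start of ASS2 in kilobases, with arrows pointing along the direction of transcription and the overlap of ASS3 with ClCG03G003650 shaded. The gap between ASS3 and ASS2 is 1178 bases and the shaded overlap 3477 bases.

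Neighbours were sought among gene models with at least 1 read count, so models without a count were passed over. Apart from ASS2 beside ASS3, no such model next to one of the 5 genes was called. On the right of ASS2, at 9348 bases, ClCG03G003690 stood at -0.68 on the log2 scale (SE 0.35, adjusted p = 0.226 from edgeR). The models beside ASS1 stood at 0.93 (Novel00603) and 0.65 (ClCG06G017790), and that on the left of ASL1, ClCG08G011650, at -0.90. ClCG11G014570, 24 bases from ASL2, had 12 to 30 counts per library and a log2 fold change of -0.77, and ClCG11G014590 on the other side stood at 0.76 (adjusted p = 0.0895 from edgeR). Novel00290 beside ASS3 and ClCG08G011670 beside ASL1 had too few counts to be tested.

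The profiles of the copies over the 6 plants were compared with each other and with all tested genes. As a measure of likeness, log2 CPM was centred on each gene's mean over the 6 libraries and the root mean square difference between genes was taken, 0 being identical profiles. ASS1 and ASS2 differed by 0.760, ASS1 and ASS3 by 0.599, ASS2 and ASS3 by 0.646, and ASL1 and ASL2 by 0.648 on the log2 scale. Among the 16318 tested genes, ordered by likeness to 1 gene, ASS3 was in place 602 and ASS2 in place 1466 from ASS1, ASS3 in place 733 from ASS2, and ASL2 in place 6784 from ASL1. ASS1 was farther from ASL1, at 1.57. Nearest to ASS1 were ClCG02G024380, described as a carboxyl-terminal peptidase (0.113), and ClCG10G021680, described as tubulin beta chain 3 (0.122). Nearest to ASS2 were ClCG09G004630, an S-adenosylmethionine synthase, which makes the methyl donor of the cell (0.171), and ClCG07G000600, described as an auxin-responsive protein (0.175). Genes with no description at hand came nearest to ASS3 (ClCG10G002500 and ClCG09G022860, 0.159 and 0.166), to ASL1 (ClCG03G003400 and ClCG05G023630, 0.0821 and 0.102) and to ASL2 (ClCG01G001610 and ClCG11G006300, 0.0368 and 0.0507). Within 0.3 of ASS1, ASS2 and ASS3 lay 41, 43 and 42 tested genes, against 401 for ASL1 and 2367 for ASL2. Profiles were centred but not scaled, so genes that vary little lie close to each other by this measure. Shared regulation was not tested.

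Of the genes that supply citrulline, upstream of the synthase, 11 of 12 were tested, and 3 were called higher and none lower, where 5.31% of all tested genes were called higher. Leaving out 1 plant turned the 3 calls into 1 (control replicate 1, drought replicate 1 or 3), 2 (drought replicate 2) or 4 (control replicate 2). They were the acetylornithine deacetylases AOD2 and AOD3, which release ornithine, and CPS2, the large subunit of carbamoyl phosphate synthase, at log2 fold changes of 8.38, 1.19 and 1.91. The median log2 fold change of this list was 0.11, against -0.03 over all tested genes. It was -1.70 for the 3 synthase genes, and the pair of lyase genes lay at 0.69 and -0.40.

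Of 6 genes that use arginine, ornithine or urea, 5 were tested and 0 were called by edgeR, 3 of them having an unadjusted p under 0.05, as 31.5% of all tested genes had. DESeq2 called 3 higher, in a fit that called 25.2% of all tested genes, and without control replicate 2 edgeR called 4 higher, where 26.1% of all genes were called. Ornithine δ-aminotransferase, which leads from ornithine towards proline, stood at 0.73 (SE 0.20, adjusted p = 0.0520 from edgeR). The median log2 fold change of this list was 0.66.

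Aspartate is the other substrate of the synthase. Of 6 genes around aspartate and glutamine that the study had called in these samples, so that their count is no independent evidence of a direction, 1 was called higher and 2 lower. Aspartate aminotransferase ClCG07G009440, which forms aspartate from oxaloacetate, fell from 55.3, 88.4 and 57.8 FPKM in the control to 22.0, 23.9 and 19.8 FPKM under drought (log2 fold change -1.77, SE 0.19, adjusted p = 0.00491 from edgeR). The asparagine synthetase gene ClCG02G019460, whose product converts aspartate to asparagine, rose by 3.29 (SE 0.45, adjusted p = 0.00833 from edgeR). The glutamine synthetase gene ClCG05G011390 stood lower, at -2.51 (SE 0.58, adjusted p = 0.0337 from edgeR). Its level was 102, 461 and 77.5 FPKM in the control, far the highest in control replicate 2, and 37.0, 34.9 and 42.1 FPKM under drought. The other glutamine synthetase gene of the list, ClCG03G008830, named after its values were seen, stood at 1.52 (SE 0.42, adjusted p = 0.0562 from edgeR).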

How the data were processed

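Leaf libraries of 3 control and 3 drought-stressed plants were grouped by their sample labels; drought columns carry another prefix than the labels, with matching replicate numbers. The authors deposited whole-number read counts per gene, FPKM values, and gene lengths in bases. Their processing notes name fastp, HISAT2 2.1.0, featureCounts and DESeq2, whereas the paper names TopHat, HTSeq and DESeq. FPKM equalled count per length and library total for 98.6% of genes, the 5 genes included (relative tolerance 1e-06). The authors' own log2 fold changes and p-values were not used, nor were their 6 columns of normalized counts.

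Counts were tested with edgeR 4.0.16 in R 4.3.3 (quasi-likelihood, TMM, filterByExpr, condition only, two-sided, Benjamini-Hochberg over 16318 genes, threshold 0.05). Copy ratios were tested by exact permutation in SciPy 1.17.1. Alternatives were DESeq2 1.42.0 and its size factors in edgeR, no filter, library totals, a replicate block, limma 3.58.1 on log2(FPKM + 1) and log2(FPKM + 0.1), each library left out, and, added after seeing the data, scaling by actin and tubulin. The fitting code was tested on simulated data. Counting error alone (the square root of a count) was 0.629 to 8.30% of the counts of the 5 genes.

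The genes and lists were chosen with earlier results of these data known. The lists were citrulline supply, use of arginine, ornithine or urea, aspartate supply, leaf, phloem and pollen markers, and 4 reference genes. None of the reference genes was called, but all 4 had a log2 fold change below 0 (median -0.43, against -0.03 over all tested genes). Actin was lower in every drought-stressed plant than in any control plant on CPM, as were 18.5% of the tested genes. Named are the 5 genes, genes called in the pathway lists, the nearest and overlapping gene models with a read count, and the 2 genes with the most similar profile to each. Ornithine δ-aminotransferase was named after its values were seen.

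Deviations of same-numbered libraries from their group means correlated at 0.148, 0.430 and 0.130. The correlation of control replicate 3 was higher with drought replicate 1 (0.303), and neither labels nor paper name a shared block. Pairing by number is thus not established. The main fit and the copy ratio tests did not pair libraries, and pairing entered only as the replicate block alternative. No 2 libraries of a group were alike within sampling noise (chi-square per degree of freedom at least 41.2).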

Additional observations from a re-analysis of the deposited data

How the results depend on the processing

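The log2 fold changes of the 5 genes kept their direction under all 14 alternatives, and ASL2 was called under none of them. ASS1 was called by DESeq2 (-1.72) and ranged from -2.15 to -1.23 when each library was left out, being called without control replicate 2. The same ranges were -2.54 to -2.16 for ASS2, whose call was lost without drought replicate 3 (-2.21), -1.72 to -0.77 for ASS3, called without control replicate 2 (-1.54), 0.49 to 1.14 for ASL1, called without control replicate 2 (1.14), and -0.48 to -0.27 for ASL2. The ratio of ASS3 to ASS1 ranged from -0.35 to 0.52 on the log2 scale and turned below 0 without control replicate 1 (-0.35) or drought replicate 1 (-0.14). With each library left out, the log2 difference ran from -1.82 to -0.79 for the summed synthase, 0.24 to 0.85 for the summed lyase and -2.67 to -1.09 for the step ratio, and from -1.35 to -0.38 for ASS2 to ASS1, 0.89 to 1.34 for ASS3 to ASS2 and 1.01 to 1.39 for ASL1 to ASL2. The difference in share ran from -4.40 to -0.80 points for ASS2 and 16.5 to 23.1 points for ASL1, and crossed 0 for ASS1 (-0.13 to 4.96 points) and ASS3 (-0.55 to 0.93 points). Over all genes, 2185 were called, against 4120 by DESeq2, 936 when scaled by actin and tubulin, and 314 to 4357 with a library left out (4357 when control replicate 2 was the one left out, 642 when it was control replicate 1, and 425, 507 and 314 when it was drought replicate 1, 2 or 3). Fewer libraries enter those fits, and for the other differences the cause was not tested. Library totals moved the median log2 fold change of all tested genes up by 0.17 and scaling by actin and tubulin by 0.36, and with the latter ASS1, ASS2, ASS3, ASL1 and ASL2 stood at -1.03, -1.84, -0.72, 0.86 and -0.10. With the replicate block, which pairs libraries by number, 2334 genes were called, ASS1 and ASS2 stood at -1.38 and -2.30 and ASS3 at -1.22 (adjusted p from edgeR 0.0603, against 0.151 without the block), and no call of the 5 genes changed. Relative to the spread between drought-stressed plants, counting error was largest for ASL2. It was 4.09 to 4.70% per plant, beside a coefficient of variation of 7.77% between plants in CPM. The counting error itself was largest for ASS2, at 6.55 to 8.30% under drought, beside a coefficient of variation of 27.3% in CPM.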
